A study of Arabidopsis thaliana with 6 samples.

Results

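The cysteine-rich receptor-like kinases (CRKs) of Arabidopsis thaliana were followed here as a family of 41 loci, picked by family name from the 27655 loci of the RNA-seq tables. The list holds the tandem clusters on chromosome 4 and was drawn up with earlier results of these libraries known, so the values below are a description and carry no test. The comparison was between 1 RNA-seq library of plants labelled jmj16 and 1 library of wild type Col-0 plants. The jmj16 genotype is 1 insertion allele, jmj16-1 (SAIL_535_F09), in the Col-0 background. The gene encodes JMJ16, an enzyme that takes methyl groups off histone H3 lysine 4 and that the series title describes as a repressor of leaf senescence. Both libraries came from rosette leaves 5 and 6, fully expanded and not visibly yellow. Seeds were imbibed for 3 days. The plants were moved from medium to soil after 6 days and grown at 22 °C with 16 h light and 8 h dark. The labels give the age as 4 weeks in one field and 5 weeks in another. The other 4 samples of the series are chromatin immunoprecipitations and were not analysed here.

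CRKs are membrane receptor kinases whose extracellular part carries cysteine-rich DUF26 domains and whose intracellular part is a serine/threonine kinase. Many of them are known to respond to pathogens, salicylic acid, ozone and other sources of reactive oxygen species in leaves. Several act beside the flagellin receptor FLS2 and its partners in pattern-triggered immunity, and others in responses to abscisic acid and in the timing of cell death and senescence. The large number of close paralogs in tandem clusters is a feature of the family, and such paralogs share sequence.

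The libraries held 13844284 estimated reads (jmj16-labelled) and 10643186 (wild type). JMJ16 itself (AT1G08620) had 168 estimated reads in the jmj16-labelled library and 188 in wild type, a log2 ratio of -0.63 (95% counting interval -0.94 to -0.33). Its reads therefore do not check the label, and the library is called jmj16-labelled throughout. All 7 leaf mesophyll markers had many reads, with a summed level of 19626 TPM in the jmj16-labelled library and 30979 TPM in wild type. TPM is a level per transcript length, set to the same total in each library. Of these markers 1 was lower by the rule used below and 3 after the length correction described further on, and the median log2 ratio was -0.89. In bulk leaves, fewer cells of a type and less RNA per cell cannot be told apart. The summed level of 7 vascular markers was 131 TPM in the jmj16-labelled library and 167 TPM in wild type. Of their 6 measured members 3, all genes of xylem, were higher. These were XCP1, with 26 reads in the jmj16-labelled library and 5 in wild type, CESA8 (18 and 2) and XCP2 (91 and 21). XCP1 and CESA8 had under 20 wild type reads, and of all such measured genes 28.7% were higher. The xylem gene CESA7, with 7 reads in the jmj16-labelled library and 3 in wild type, was not measured. The other measured members were short of 2-fold. They were the xylem gene CESA4 (log2 ratio 0.98) and the phloem genes SUC2 (-0.47) and APL (-0.60). Of 4 epidermis and guard cell markers measured 2 were lower (summed level of the list 23.0 TPM in the jmj16-labelled library and 31.6 TPM in wild type), and of 2 root and apex markers measured none was called (summed level 9.98 TPM in the jmj16-labelled library and 8.31 TPM in wild type). Flower and seed markers summed to 0.801 TPM in the jmj16-labelled library and 4.79 TPM in wild type, with 2 of 3 measured members lower. After the length correction 4 vascular markers and 1 root and apex marker were higher. The lower ones were then 1 epidermis and guard cell marker and 2 flower and seed markers, beside the 3 of mesophyll. The part of these shifts in the CRK values was not tested.

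As a whole the family was read at nearly the same share in both libraries, while its make-up differed. All 41 loci together had 7253 reads in the jmj16-labelled library and 5570 in wild type, which is 0.0524% of the jmj16-labelled library and 0.0523% of the wild type library. In TPM the sum was 213 in the jmj16-labelled library and 218 in wild type. The log2 ratio of the summed reads was -0.09 (-0.14 to -0.04). Without CRK4, the gene with the largest difference in reads, the sum was 171 TPM in the jmj16-labelled library against 196 TPM in wild type, with a log2 ratio of -0.28 (-0.33 to -0.22). Each ratio has the jmj16-labelled library on top and wild type below, from scaled reads with 0.5 added to each count. The intervals cover counting error only and say nothing of the spread between plants, which 1 library per genotype cannot show.

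A few genes carried most of the family's transcript. In the jmj16-labelled library CRK4 was the most abundant at 42.1 TPM, followed by CRK18 at 36.7, CRK40 at 25.1, CRK19 at 10.8 and CRK21 at 10.4 TPM. In wild type CRK18 led at 54.8 TPM, ahead of CRK4 and CRK3 at 21.9 TPM each, CRK19 at 19.9, CRK21 at 16.4 and CRK40 at 16.1 TPM. The first 5 genes took 58.6% of the family's TPM in the jmj16-labelled library and 61.9% in wild type. CRK4 and CRK18 thus exchanged ranks: CRK4 took 22.1% of the family's reads in the jmj16-labelled library and 11.3% in wild type. CRK18 took 14.8% in the jmj16-labelled library and 21.8% in wild type. CRK36 stood at rank 9 in the jmj16-labelled library and at rank 28 in wild type.

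**Figure D1:**
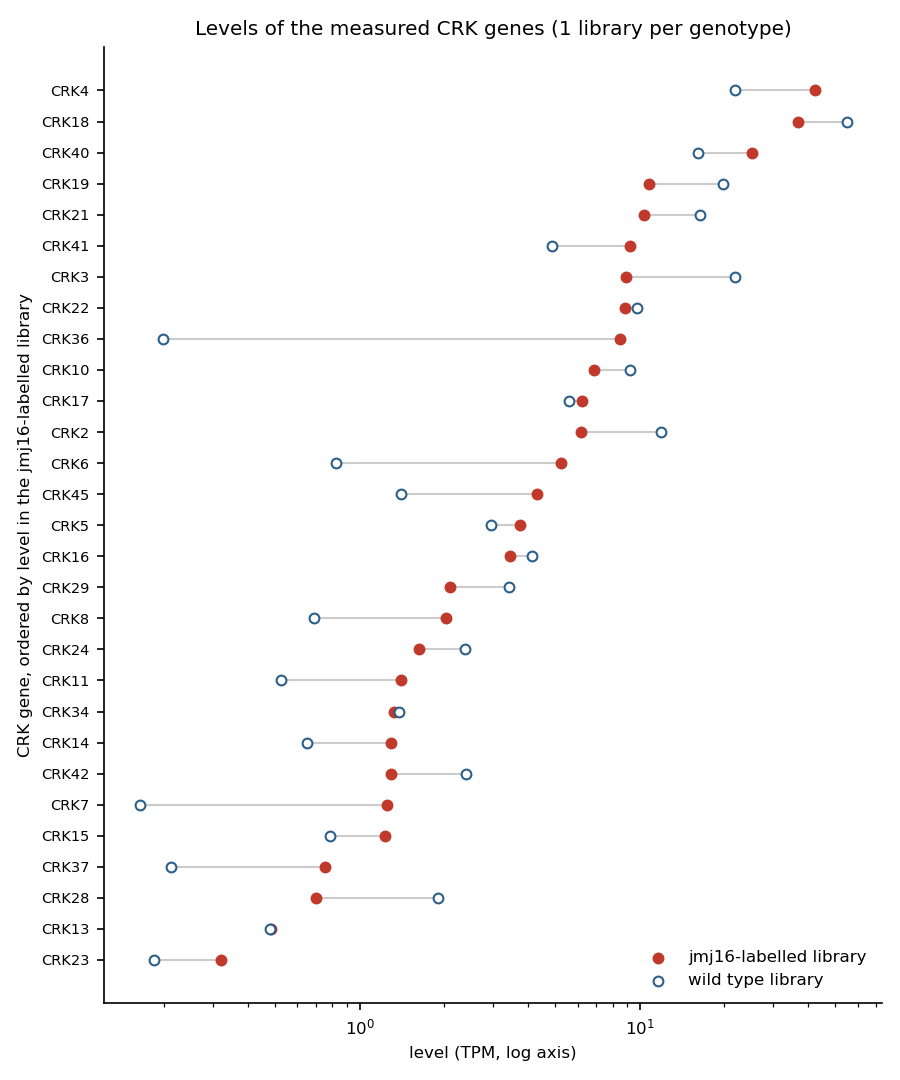
Level of each measured CRK gene in TPM on a log axis, with filled points for the jmj16-labelled library and open points for the wild type library (1 library each, so no error bars). CRK36 has the longest gap, with 8.53 TPM in the jmj16-labelled library and 0.199 TPM in wild type, while CRK4 and CRK18 lead the family in both.

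Of the 41 loci, 29 were measured, that is, had at least 20 reads over both libraries. The rule for calling a measured gene asked for a difference of 2-fold or more and for a 95% counting interval of the ratio without 1 in it. By this rule 7 CRK genes were higher, 4 lower and 18 neither in the jmj16-labelled library. Of the measured CRKs these were 24.1% and 13.8%, and of all 17151 measured genes 7.22% were higher and 10.6% lower. The median log2 ratio of the measured CRKs was 0.08, against 0.02 over all measured genes, so the family did not move as a block. Its middle range was wider, from a lower quartile of -0.65 to an upper quartile of 0.90, against -0.48 and 0.43 for all measured genes. Under 20 wild type reads were found for 10 of the 29 measured CRKs and for 1743 of all 17151 measured genes. Counting error is larger for such genes, and the range was not compared at like depth. With total-count or upper-quartile scaling 7 CRKs were higher and 2 lower, since CRK2 and CRK42 were then just short of 2-fold.

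The higher genes were scarce in wild type, and the minimum of reads bears on their count. Their levels ran from 0.755 to 8.53 TPM in the jmj16-labelled library and from 0.164 to 1.40 TPM in wild type. The 4 lower genes ran from 0.699 to 8.95 TPM in the jmj16-labelled library and from 1.91 to 21.9 TPM in wild type. Of the 7 higher genes, 6 had under 20 reads in wild type and so passed the minimum only with reads of the other library. Among all 1743 measured genes with under 20 wild type reads 28.7% were higher and 5.45% lower, and among the 10 such CRKs 6 were higher and 0 lower. Among the 19 CRKs with 20 or more wild type reads 1 was higher (CRK6) and 4 lower, while 4.79% of all 15408 such genes were higher and 11.2% lower. With a minimum of 100 reads, 17 CRKs were measured, of which 2 were higher (CRK6 and CRK36) and 3 lower, beside 5.49% higher and 8.80% lower among all 13618 such genes.

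**Figure D2:**
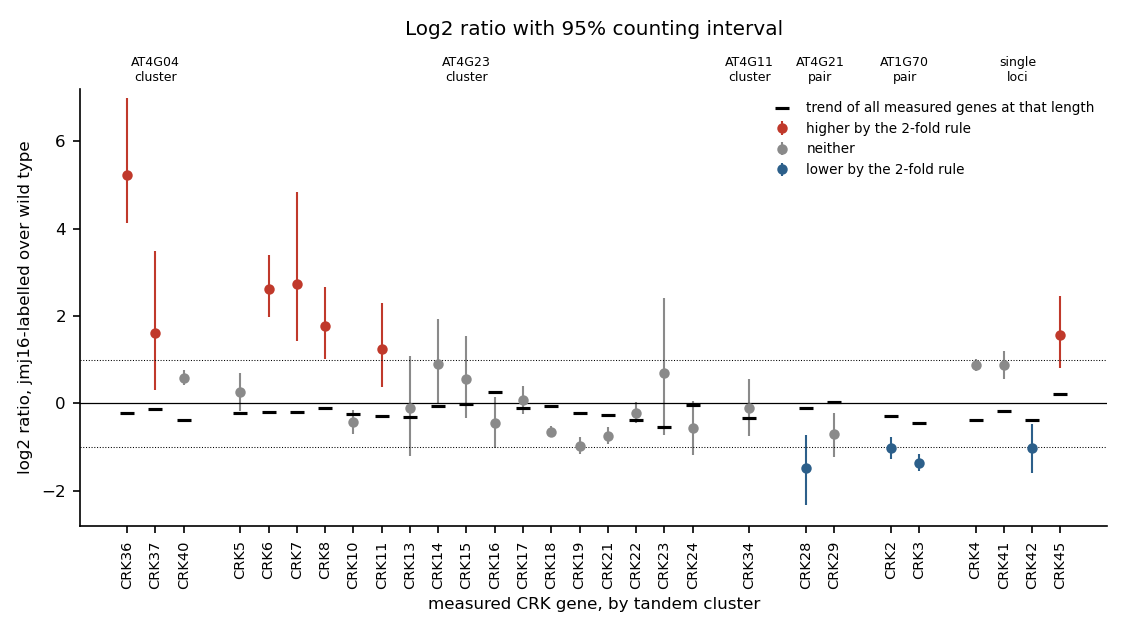
Log2 ratio of each measured CRK gene, jmj16-labelled library over wild type, grouped by tandem cluster; bars are 95% counting intervals, dotted lines mark 2-fold and black dashes the trend of all measured genes at that transcript length. The CRK36 and CRK6 to CRK8 points lie above 2-fold, while CRK2, CRK3, CRK28 and CRK42 lie beyond 2-fold on the lower side.

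The cluster of AT4G04 loci held the gene with the largest difference in the family. CRK36 (AT4G04490) had 283.6 estimated reads in the jmj16-labelled library and 5.0 in wild type. Its level was 8.53 TPM in the jmj16-labelled library and 0.199 TPM in wild type. This was 37.3-fold higher, with a wide interval (17.3 to 127) that the 5 wild type reads set. CRK36 is known to act with the cytosolic kinase ARCK1 in restraining responses to abscisic acid and osmotic stress, and with the kinase BIK1 in immune signalling. Its neighbour CRK37 (AT4G04500) had 23.4 reads in the jmj16-labelled library and 5.0 in wild type, 3.08-fold higher (1.23 to 11.2). CRK40 (AT4G04570), far more abundant, had 928.3 reads in the jmj16-labelled library, 444.6 in wild type and a log2 ratio of 0.59 (0.42 to 0.76), short of 2-fold. The remaining loci of this cluster were hardly read: CRK38 had 0 reads in both libraries, and CRK39 had 1.1 in the jmj16-labelled library and 3.2 in wild type. Around the cluster, 10 of 20 flanking protein-coding genes were measured, of which 0 were higher and 3 lower, with a median log2 ratio of -0.40.

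ARCK1, also listed as CRK45 (AT4G11890), is a receptor-like kinase without the extracellular part and lies apart from the clusters. It had 71.0 reads (4.29 TPM) in the jmj16-labelled library and 17 reads (1.40 TPM) in wild type. That is 2.95-fold higher (1.76 to 5.46), in the same direction as its known partner CRK36. Its annotated gene overlaps AT4G11900, which had 138.0 reads in the jmj16-labelled library and 184.0 in wild type, so without a stated strand setting reads of the overlap cannot be told apart. The summed reads of ARCK1 were whole numbers in both libraries.

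In the cluster of AT4G23 loci, which holds 19 of the 41 genes, 17 were measured. Of these 4 were higher, 0 lower and 13 passed in neither direction, and the median log2 ratio was 0.08. The 3 highest ratios lay toward its CRK5 end. CRK6 (AT4G23140), known with CRK7 for roles in the response to extracellular reactive oxygen species and with FLS2 in immunity, had 172.9 reads in the jmj16-labelled library and 20.3 in wild type. It was 6.10-fold higher (3.92 to 10.5). CRK7 (AT4G23150) had 40.8 reads in the jmj16-labelled library and 4.1 in wild type and was 6.65-fold higher (2.68 to 28.4). CRK8 (AT4G23160) had 77.3 reads in the jmj16-labelled library and 15.9 in wild type, 3.39-fold higher (2.01 to 6.37). These 3 adjacent genes all had under 1 TPM in wild type, from 0.164 to 0.823, and from 1.25 to 5.22 TPM in the jmj16-labelled library. CRK5 (AT4G23130), next to them at the cluster's edge, is known from loss-of-function plants that senesce early. It had 123.9 reads in the jmj16-labelled library and 75 in wild type, a log2 ratio of 0.25 (-0.17 to 0.69) whose interval includes no difference.

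Further along the cluster the ratios were smaller and then mostly below 0. CRK11 (AT4G23190), described early on as a receptor-like kinase gene induced by oxidative stress, had 44.4 reads in the jmj16-labelled library and 13.1 in wild type and was 2.38-fold higher (1.29 to 4.94). Its annotated gene overlaps that of CRK10, which had 235.7 reads in the jmj16-labelled library and 229.4 in wild type (log2 ratio -0.43, -0.70 to -0.16). CRK10 is known from a gain-of-function allele that stunts growth. CRK14 (log2 ratio 0.90, 0.01 to 1.93) and CRK15 (0.55, -0.33 to 1.53) were above 0 without passing the rule. CRK13, whose overexpression raises salicylic acid and resistance to bacteria, had 17.5 reads in the jmj16-labelled library and 13.1 in wild type and a log2 ratio of -0.10 (-1.21 to 1.08), which cannot be told from no difference at this depth. CRK16 and CRK17, whose annotated genes also overlap, had log2 ratios of -0.44 (-1.03 to 0.14) and 0.08 (-0.24 to 0.40).

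At the other end of the same cluster were its abundant genes. CRK18 (AT4G23260) had 1070.8 reads in the jmj16-labelled library and 1213.7 in wild type, a log2 ratio of -0.65 (-0.77 to -0.53). CRK19 (AT4G23270), which causes cell death in leaves when its expression is induced, had 375.0 reads in the jmj16-labelled library and 529.3 in wild type and was 1.96-fold lower (1.71 to 2.24), the nearest to the 2-fold rule without passing it. CRK21 had 362.3 reads in the jmj16-labelled library and 435.7 in wild type (log2 ratio -0.74, -0.94 to -0.54). The intervals of these 3 genes excluded no difference while their sizes stayed under 2-fold. CRK22 (-0.22, -0.45 to 0.02), CRK23 (0.69, -0.72 to 2.42) and CRK24 (-0.56, -1.18 to 0.05) had intervals that included no difference.

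Summed by stretches that were chosen after the values were seen, CRK5 to CRK8 had 12.3 TPM in the jmj16-labelled library and 4.61 TPM in wild type. CRK10 to CRK17 had 21.3 TPM in the jmj16-labelled library and 21.5 TPM in wild type. CRK18 to CRK24 had 68.8 TPM in the jmj16-labelled library and 104 TPM in wild type. The sums of the first and last stretch differed in opposite directions, which such a choice of stretches favours. Of the 6 measured genes of CRK18 to CRK24, 0 were called lower. The abundant stretch outweighed the scarce one in the cluster's sum of 102 TPM in the jmj16-labelled library against 130 TPM in wild type. EP1 (AT4G23170), also named CRK9, which the member list does not hold, lies between CRK8 and CRK10, with 774 reads in the jmj16-labelled library, 450 in wild type and a log2 ratio of 0.31 (0.14 to 0.48). Of the 20 genes flanking the cluster 6 were measured, with 1 higher, 1 lower and a median log2 ratio of -0.17.

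**Figure D3:**
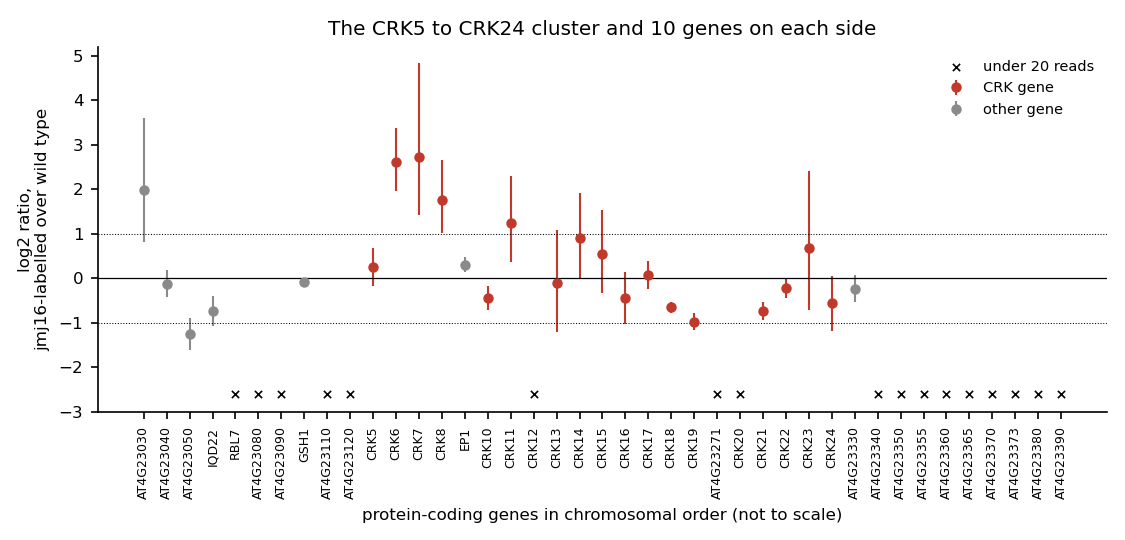
Log2 ratio (jmj16-labelled library over wild type, bars are 95% counting intervals) of protein-coding genes in chromosomal order across the CRK5 to CRK24 cluster and 10 genes on each side; crosses mark genes under 20 reads. CRK6, CRK7 and CRK8 sit together above 2-fold, and CRK18, CRK19 and CRK21 sit together below 0.

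The lower genes lay outside that cluster. CRK3 (AT1G70530) had 361.0 reads (8.95 TPM) in the jmj16-labelled library and 668.0 reads (21.9 TPM) in wild type, and was 2.56-fold lower (2.25 to 2.92). CRK2 (AT1G70520), its neighbour, which is known to phosphorylate the NADPH oxidase RBOHD, had 218.0 reads in the jmj16-labelled library and 319.0 in wild type, 2.03-fold lower (1.70 to 2.42). Both genes had whole numbers of reads in both libraries. Of 14 measured genes flanking this pair 0 were higher and 2 lower, with a median log2 ratio of 0.22. CRK28 (AT4G21400), which associates with BAK1 and FLS2 and strengthens resistance when overexpressed, had 20.7 reads in the jmj16-labelled library and 43.4 in wild type and was 2.81-fold lower (1.65 to 5.04). Its annotated gene overlaps that of CRK29, which had 65.3 reads in the jmj16-labelled library and 76.6 in wild type (log2 ratio -0.71, -1.22 to -0.22), so the division of reads between them is uncertain. Of 12 measured genes flanking the CRK28 and CRK29 pair 0 were higher and 3 lower, with a median of -0.44. CRK42 (AT5G40380), a single locus, had 47.4 reads in the jmj16-labelled library and 69.3 in wild type and was 2.03-fold lower (1.39 to 3.02). Its annotated gene overlaps AT5G40382, which had 6.6 reads in the jmj16-labelled library and 4.7 in wild type. CRK2 and CRK42 stand just inside the 2-fold rule, as CRK19 stands just outside it.

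Among the other single loci, CRK4 (AT3G45860), whose induced expression also causes cell death and which acts with CRK6 and CRK36 in pattern-triggered immunity, had 1604.7 reads in the jmj16-labelled library and 631.1 in wild type. At 1.83-fold (1.67 to 2.01) it was short of the rule. CRK41 (AT4G00970) had 301.8 reads in the jmj16-labelled library and 119.0 in wild type and was also 1.83-fold higher (1.48 to 2.28), likewise short of the rule. CRK34, the only measured gene of the AT4G11 cluster, had 49.0 reads in the jmj16-labelled library and 38.4 in wild type (log2 ratio -0.11, -0.75 to 0.55). Of 9 measured genes flanking that cluster 0 were higher and 1 lower.

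The remaining 12 loci were too little read for a ratio. CRK1, CRK31, CRK33 and CRK38 had 0 reads in both libraries. A count of 0 allows up to 3 reads, which for these genes would be 0.0806 to 0.110 TPM in the jmj16-labelled library and 0.106 to 0.145 TPM in wild type. CRK12 had 10 reads in the jmj16-labelled library and 2 in wild type. CRK27 had 9 reads in the jmj16-labelled library and 4 in wild type, and CRK30 had 5 in the jmj16-labelled library and 12 in wild type. CRK20, CRK25, CRK26, CRK32 and CRK39 had at most 3.2 reads in either library. Of the 5 AT4G11 loci, then, 4 had at most 12 reads in either library.

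Transcript length moved with the ratios of all genes, and the CRKs are long. The most abundant transcript of the measured CRKs had a median length of 2257 nt, against 1620 nt over all measured genes. The trend of all genes, from a lowess curve, was below 0 at the length of 26 of the 29 CRKs and ran from -0.55 to 0.26 on the log2 scale. Of the 1997 measured genes between the CRKs' length quartiles, 2049 and 2444 nt, 4.01% were higher and 10.3% lower. After the trend was subtracted, 9 CRKs were higher, 1 lower and 19 neither, while 6.24% of all measured genes were higher and 6.69% lower. CRK4 (corrected log2 ratio 1.25) and CRK41 (1.05) then joined the 7 higher genes. CRK2 (-0.73), CRK3 (-0.92) and CRK42 (-0.65) no longer passed, which left CRK28 (-1.39) as the single lower gene. The median of the measured CRKs was then 0.22, against 0.01 over all measured genes. All 7 higher genes thus passed after this correction, against 1 of the 4 lower genes. The trend was below 0 for every called CRK except ARCK1 (0.22). Subtracting it raised the ratios of the others by construction, which keeps higher genes called and moves lower genes toward 0. What produced the trend was not tested.

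**Figure D4:**
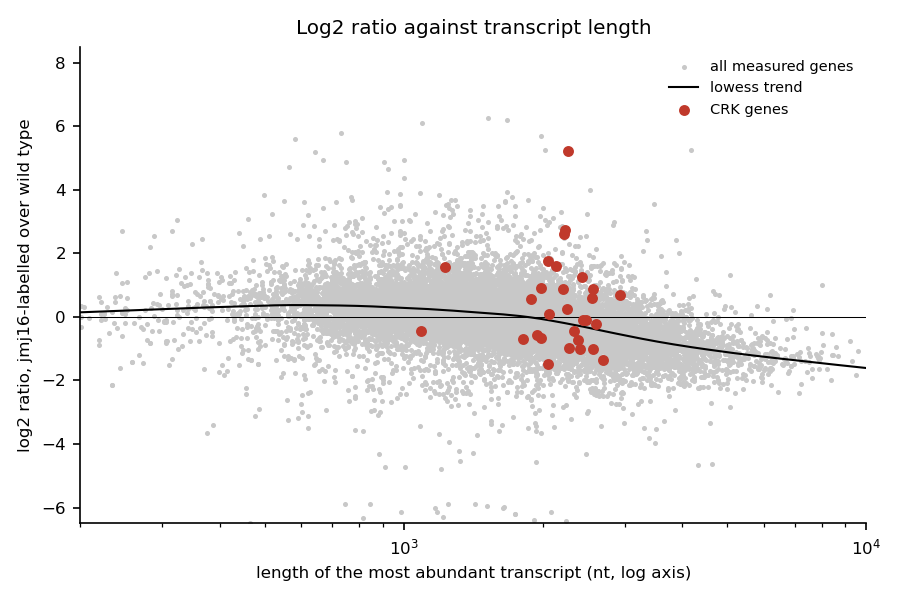
Log2 ratio (jmj16-labelled library over wild type) against the length of the most abundant transcript on a log axis, with all measured genes in grey, their lowess trend as a black line and the 29 measured CRKs in red; 53 of 17151 genes lie outside the axes. Most CRKs lie at lengths where the trend is below 0, and CRK36, CRK7 and CRK6 lie farthest above it.

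Of the 29 measured CRKs 21 have more than 1 transcript model, and for several the estimated reads were split among them differently in the 2 libraries. For CRK5, model AT4G23130.1 took 84.8% of the reads in the jmj16-labelled library, while in wild type AT4G23130.3 took 52.6% and AT4G23130.2 took 47.4%. For CRK10, all but a trace of 235.7 reads went to AT4G23180.1 in the jmj16-labelled library, while in wild type AT4G23180.2 took 56.3% and AT4G23180.1 took 36.9%. For CRK24, AT4G23320.3 took 1.38% in the jmj16-labelled library and 67.6% in wild type. For CRK8, one of the higher genes, AT4G23160.2 took 41.9% in the jmj16-labelled library and 0.0723% in wild type. The abundant CRK18 differed little, with 58.7% of reads on AT4G23260.1 in the jmj16-labelled library and 54.8% in wild type. Reads that fit several models of a gene are divided by estimation, so these shares have no counting interval here. The most abundant model of a gene was the one with the largest TPM summed over both libraries. For CRK5, CRK10 and CRK24 it led in the jmj16-labelled library but not in wild type, so the choice itself favours a higher ratio. From the most abundant model alone 2 of these genes changed direction. The log2 ratio of CRK10 was 1.00 in place of -0.43 and that of CRK24 was 0.27 in place of -0.56. The ratio of CRK5 was 7.25 in place of 0.25, with 105.1 reads on that model in the jmj16-labelled library and 0.0 in wild type. That of CRK11 was 0.84 in place of 1.25, and that of CRK8 was 1.18 in place of 1.76.

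**Figure D5:**
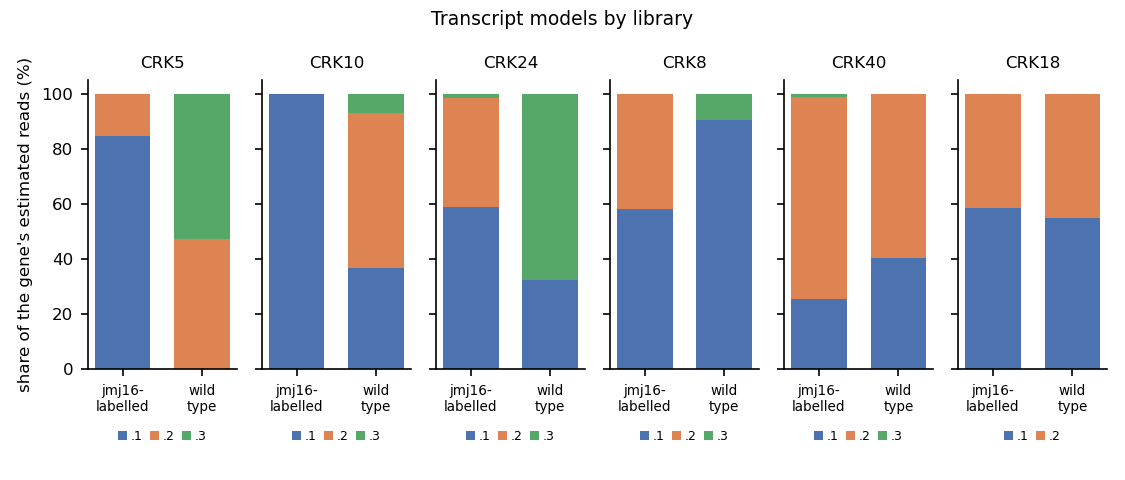
Share of each gene's estimated reads, in percent, given to each of its transcript models (numbered as in the locus suffix) in the jmj16-labelled and wild type libraries for 6 CRK genes chosen after their values were seen. CRK5, CRK10 and CRK24 have different leading models in the libraries, while CRK18 is nearly the same in both.

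Reads of the family could also be divided between loci. Summed over its transcripts, a locus whose reads are not divided with another has a whole number of estimated reads. To within 0.01 reads this held in both libraries for 4 of the 29 measured CRKs: CRK2, CRK3, CRK14 and ARCK1. The other 25 had a sum that was not whole in at least 1 library, and how many of their reads were divided is not in the tables.

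Genes that work beside CRKs were read from lists that were not limited to CRKs. Of 33 genes of pattern-triggered immune signalling 29 were measured, of which 1 was higher and 2 lower, and the median log2 ratio was 0.12. PUB23, a ubiquitin ligase that dampens this signalling, had 58 reads in the jmj16-labelled library and 12 in wild type (log2 ratio 1.75, 0.89 to 2.83). The lower genes were FLS2 itself, with 92 reads in the jmj16-labelled library and 148 in wild type (-1.15, -1.55 to -0.77), and PUB12, with 23 reads in the jmj16-labelled library and 39 in wild type (-1.22, -2.04 to -0.45). FLS2 no longer passed after length correction (-0.21), and with it 4 genes of the list were higher and 1 lower. BIK1, the kinase below FLS2, had a log2 ratio of 0.79 (0.59 to 0.99) and BAK1, the co-receptor, of 0.36 (0.19 to 0.54), both chosen as CRK partners after their values were seen.

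Enzymes that make reactive oxygen species in the apoplast were measured for 4 of 10 list members, of which 2 were higher and 0 lower. The peroxidase PRX34 had 3561 reads in the jmj16-labelled library and 1118 in wild type (log2 ratio 1.20, 1.10 to 1.30), and PRX71 had 271 in the jmj16-labelled library and 82 in wild type (1.25, 0.89 to 1.63). RBOHD, the oxidase that CRK2 phosphorylates and also chosen after its values were seen, had a log2 ratio of 0.49 (0.39 to 0.58), which was 1.29 after length correction. Among 14 measured salicylic acid defence genes 6 were higher and 0 lower, with a median of 0.72. The widest differences in that list were PR2 (log2 ratio 3.54, 3.24 to 3.88), DLO1 (2.73, 1.42 to 4.83), CBP60G (2.04, 1.86 to 2.21) and PR1 (1.96, 1.03 to 3.15). DLO1 had 41 reads in the jmj16-labelled library and 4 in wild type, and PR1 had 56 and 10. Both thus passed the minimum only with reads of the jmj16-labelled library. Of all measured genes with under 20 wild type reads 28.7% were higher. All 6 listed WRKY factors had log2 ratios above 0 (0.32 to 2.27), and WRKY53 alone was called higher, from 197 reads in the jmj16-labelled library and 29 in wild type. WRKY33, the most read of them with 1665 reads in the jmj16-labelled library and 658 in wild type, had a log2 ratio of 0.87 (0.74 to 1.00). WRKY70, with 664 reads in the jmj16-labelled library and 383 in wild type, had 0.32 (0.14 to 0.51). Some WRKY factors are known to bind W-box elements in CRK promoters; binding was not measured here.

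Other DUF26 proteins and other receptor kinase families are given for scale. Of 5 measured plasmodesmata-located proteins, which carry DUF26 domains without a kinase, 1 was higher and 0 lower: PDLP6, with 85 reads in the jmj16-labelled library and 28 in wild type (log2 ratio 1.11, 0.50 to 1.80), which had 0.97 after length correction. PDLP5, the most abundant of them, had 513 reads in the jmj16-labelled library and 263 in wild type (0.49, 0.28 to 0.71). Of CRK loci outside the list, EP1 and AT1G70740 were measured and neither passed. Of 45 lectin receptor kinases 20 were measured, with 0 higher, 1 lower and a median of 0.12, and after length correction 4 were higher and 0 lower with a median of 0.33. The lower gene was LECRKA4.3, with 161 reads in the jmj16-labelled library and 233 in wild type (log2 ratio -0.36 after length correction), and the most read ones were RLK (AT2G37710; log2 ratio 0.79, 0.67 to 0.92) and AT4G02410 (0.11, -0.05 to 0.27). Of 13 wall-associated kinases 8 were measured, with 1 higher, 0 lower and a median of -0.13, or 0.23 with the same counts after length correction. The higher gene was WAK3, with 23 reads in the jmj16-labelled library and 1 in wild type. The most read ones were WAK1 (log2 ratio 0.40, 0.23 to 0.56) and WAK2 (0.12, -0.04 to 0.28). Whether the CRKs differ from these families was not tested, since 1 library per genotype allows none.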

How the data were processed

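The authors deposited 1 table per RNA-seq library with estimated counts of reads per transcript model, not normalized, and TPM, scaled by effective length and library total, in the layout of Salmon per the file headers. Transcript and effective lengths are the deposited values, in nt. Per the submitters' processing notes, the build was TAIR10 and the tools were Bowtie2, deepTools, Salmon, SAMtools and TopHat2. Their roles and versions, the strand setting, the read layout and the annotation release: not given in the sources used here. Without a strand setting, overlapping genes cannot be told apart.

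Estimated counts and TPM were summed per locus and counts rounded (48359 models, 27655 loci; 27445 matched a symbol or alias in RefSeq's TAIR10.1 gene table, used for names and gene order only). Library totals were scaled by TMM factors of 1.03 (jmj16-labelled) and 0.969 (wild type) from edgeR 4.0.16 in R 4.3.3, used for scaling alone. Log2 ratios add 0.5 to each count. Counting intervals are Clopper-Pearson at 95%, and reads are not independent molecules. Length correction subtracts a lowess trend (span 0.3, statsmodels 0.14.6) on log2 length of the most abundant transcript. With 1 library per genotype no test is possible. The calculations were tested on simulated whole counts with differences planted in well read genes only. Those counts had no divided reads and no spread between plants, so this does not bear on the calls of scarce genes.

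The members and lists were chosen with earlier results of these data known. Every measured CRK was to be named or counted. Of other lists, up to 4 passing genes were to be named, or the 2 most read where fewer than 2 passed. Marker lists are given by counts, except that the vascular markers were named after their values were seen. Other exceptions are said to be chosen after their values were seen. Lectin and wall-associated kinases were taken by symbol or alias after the tables were opened.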

Additional observations from a re-analysis of the deposited data

How the results depend on the processing

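The median log2 ratio of the measured CRKs, 0.08 as reported, lay between -0.43 (minimum of 100 reads) and 0.51 (most abundant transcript alone) over the alternatives, so its sign was not stable. The most abundant transcript was picked by TPM summed over both libraries. For CRK5, CRK10 and CRK24 that choice favours a higher ratio, as said above. The 7 higher and 4 lower CRKs became 3 and 1 with log2(TPM + 1), 11 and 8 with a rule of 1.5-fold, 3 and 0 with a rule of 4-fold, and 4 and 1 with intervals wholly beyond 2-fold. Lower CRKs were 2 with total-count scaling, 2 with upper-quartile scaling and 1 after length correction, and higher CRKs were 2 with a minimum of 100 reads. Of all measured genes, 1239 higher and 1825 lower as reported, 2821 and 3355 passed a rule of 1.5-fold, 255 and 292 a rule of 4-fold, 487 and 807 had intervals wholly beyond 2-fold, and 747 and 1199 passed with a minimum of 100 reads. Lower genes numbered 747 with log2(TPM + 1), beside 941 higher ones, and 1148 after length correction. The stricter rules and the higher minimum lose genes by construction. The log2(TPM + 1) setting changes both the scaling and the added constant, and the cause of its lower counts was not tested, nor that of the changes under other scalings. No called CRK changed direction under the alternatives run. Uncalled CRK10 and CRK24 did from the most abundant transcript alone (1.00 and 0.27). Uncalled CRK13, CRK22 and CRK34 did after length correction (0.21, 0.18 and 0.22). CRK6 and CRK36 passed under all of them, CRK7 missed with log2(TPM + 1) (0.95) and lay under the minimum of 100 reads, and CRK11 missed, among others, with 5 added (0.97). No paired analysis was possible because each genotype has 1 library. Depth limits the 12 unmeasured CRKs and those with few wild type reads.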
